A study of Mus musculus with 4 samples.

Results

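The fibrillar collagens and collagen IX were described here by 10 genes of 52636 counted in mouse cells sorted as otic cells. They were chosen by gene name as 5 cartilage-type genes (Col2a1, Col9a1, Col9a2, Col11a1 and Col11a2) and 5 mesenchyme-type genes (Col1a1, Col1a2, Col3a1, Col5a1 and Col5a2), with the read levels of these same libraries already known. Their differences between the groups are therefore given as a description, and nothing is read from their calls in the fits over all genes. All 10 passed the filter on low counts. The study compared 2 libraries of genotype Control with 2 of genotype Brg1cKO, a conditional knockout of Brg1, the ATPase of a chromatin remodelling complex that is encoded by Smarca4. All were labelled as otic ectoderm from otocysts, the vesicles from which the inner ear forms, and each was made from 3000 cells. The embryonic stage, the Cre driver, the alleles and the number of embryos behind each library are details not given in the sources used here. Nothing in the labels says that the replicates came from separate litters or sorts, so the spread that the p-values rest on is that of these 4 libraries and may be technical.

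Fibrillar collagens are extracellular proteins in which a trio of chains, rich in glycine, winds into a long rod. Rods pack into fibrils that give tissue its tensile strength. Collagen I (Col1a1 and Col1a2) and collagen III (Col3a1) form the fibrils of most connective tissue, and collagen V (Col5a1 and Col5a2) starts those fibrils and limits their width. Collagen II (Col2a1) takes that part in cartilage, where collagen XI (Col11a1 and Col11a2) starts the fibrils and collagen IX (Col9a1, Col9a2 and Col9a3) decorates their surface. In the inner ear, collagens II, IX and XI are known from the otic capsule and from the tectorial membrane, and Col2a1 is also made by the early otic epithelium.

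The repeat that makes the rod is visible in the genes themselves. In the main coding transcript of each gene in GENCODE M21, the longest unbroken run of codon triplets that begin with glycine was 338 to 344 in the 8 genes of collagens I, II, III, V and XI. In Col9a1 and Col9a2 it was 113. Of 531 coding exons of the 10 genes, 236 (44.4%) were exactly 54 bp long and 424 (79.8%) were a multiple of 9 bp, against 0.673% and 14.5% of 199788 coding exons of all protein-coding genes. For 6 of the genes, the first 54-bp exon at or after the start of that run that begins with a glycine codon and repeats one every 9 bases is printed here. They are shown because such repeats could make reads of related genes hard to tell apart. Capitals mark the glycine codons. In mm10 they lie at chr15:97996489-97996542 (Col2a1, minus strand), chr11:94939904-94939957 (Col1a1, plus), chr6:4515481-4515534 (Col1a2, plus), chr1:45325360-45325413 (Col3a1, plus), chr4:121045141-121045194 (Col9a2, plus) and chr17:34051480-34051533 (Col11a2, plus).
Col2a1: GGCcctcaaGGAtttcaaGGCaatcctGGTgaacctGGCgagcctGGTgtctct
Col1a1: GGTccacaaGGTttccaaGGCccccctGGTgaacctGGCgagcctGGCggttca
Col1a2: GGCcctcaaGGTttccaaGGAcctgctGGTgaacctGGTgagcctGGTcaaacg
Col3a1: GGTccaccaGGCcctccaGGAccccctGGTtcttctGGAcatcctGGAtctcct
Col9a2: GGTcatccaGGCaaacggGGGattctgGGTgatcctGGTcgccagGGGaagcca
Col11a2: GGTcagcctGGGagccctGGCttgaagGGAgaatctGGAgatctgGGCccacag
The Col2a1 exon shared 43 of 54 bases with that of Col1a1, 42 with that of Col1a2, 31 with that of Col3a1, 28 with that of Col9a2 and 24 with that of Col11a2. A read of 75 bp is longer than such an exon. No window of 75 bases in the main transcripts of Col2a1, Col9a1, Col9a2, Col11a1, Col11a2, Col1a1, Col1a2 or Col5a2 occurred on either strand in a transcript of another gene. For Col3a1, 67 of 5490 windows occurred in Gm47302, which shares 141 exonic bases on the same strand. For Col5a1, 70 of 8332 occurred in Gm13372 or 2810430I11Rik, which share 212 exonic bases on the opposite strand. The match was exact, so it does not cover reads with mismatches.

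**Figure D1:**
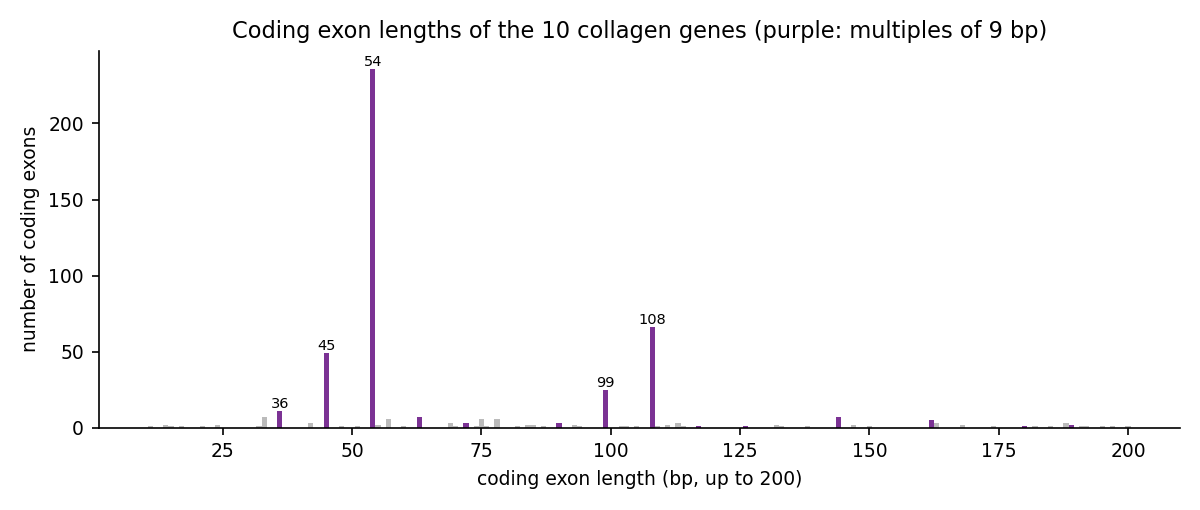
Number of coding exons (y axis) at each length up to 200 bp (x axis) in the main coding transcripts of the 10 collagen genes, with multiples of 9 bp in purple. The bar at 54 bp holds 236 exons.

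The libraries held 15357265 and 19132360 reads in genes in the controls and 29361382 and 25875555 in the libraries labelled Brg1cKO. Smarca4 stood at 815 ± 0.888 CPM (SD, n = 2) in control libraries, against 870 ± 30.5 CPM (SD, n = 2) in the other group, a count that includes exons a deletion would leave, so it does not check the labels on which each direction depends. CPM is the usual read count of a gene scaled to a common library total, here with TMM factors. Over all tested genes, log2 ratios of 1 replicate to the other had an SD of 2.30 in the controls and 1.27 in the libraries labelled Brg1cKO. Summed markers of the labelled cells and of some other cell types also differed between the labels. All 20 otic epithelium markers passed the filter, and 17 lay below both controls, beside 17.8% of all genes tested. The summed level of the 20 was 2284 and 2300 CPM in control libraries, against 472 and 470 CPM in those labelled Brg1cKO. Neuroblast markers (13) summed to 1521 and 1517 against 501 and 444 CPM, and red blood cell markers (12) to 639 and 666 against 231 and 212 CPM. White blood cell markers (17) summed to 457 and 525 against 2007 and 1895 CPM, striated muscle markers (16) to 197 and 156 against 943 and 969 CPM, and endothelial markers (14) to 3176 and 3171 against 3595 and 3502 CPM. Neural crest and glia markers (10) summed to 589 and 657 against 567 and 605 CPM, with groups that overlap. Bone markers (8) summed to 40.9 and 48.4 against 30.2 and 19.4 CPM, with Bglap at 0 in every library. Their part in the collagen differences was not tested, and fewer cells of a type and less RNA per cell cannot be told apart in bulk RNA.

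All 5 cartilage-type genes were lower in both libraries labelled Brg1cKO than in either control. Among the mesenchyme-type genes this held for the pair of collagen I chains alone, while Col3a1 was slightly higher in both and the collagen V chains overlapped. In all, 7 of the 10 genes lay below both controls, where 17.8% of the 16557 genes tested did, and 1 lay above both, where 26.3% did. The summed level of the cartilage-type genes was 2375 and 2604 CPM in control libraries, against 1173 and 1168 CPM in those labelled Brg1cKO. That of the mesenchyme-type genes was 4173 and 4326 against 3210 and 3444 CPM. The cartilage-type share of the reads of the 10 genes was 36.3% and 37.6% for controls, against 26.8% and 25.3% for Brg1cKO.

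**Figure D2:**
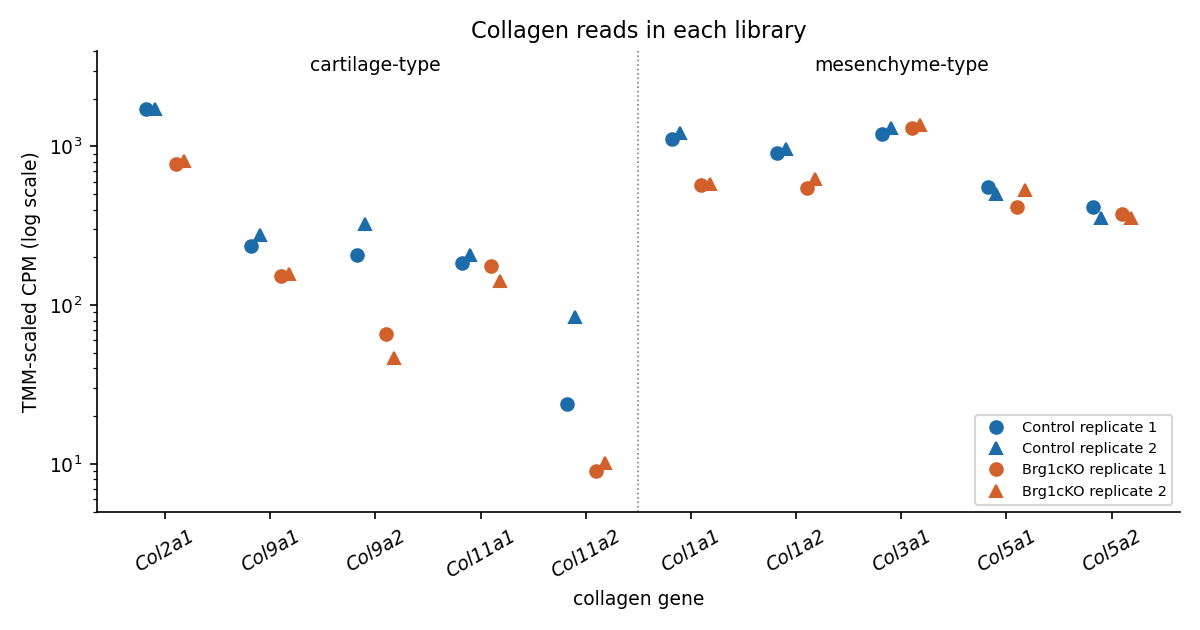
TMM-scaled CPM on a log scale (y axis) of each collagen gene (x axis) in the 4 libraries, with circles for replicate 1 and triangles for replicate 2. The controls lie above the libraries labelled Brg1cKO for all 5 cartilage-type genes and for Col1a1 and Col1a2.

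Col2a1, the chain of the cartilage fibril (ENSMUSG00000022483, chr15:97975602-98004695), stood at 1724 and 1711 CPM in control libraries, against 770 and 813 CPM in those labelled Brg1cKO. The replicates lay close together and the groups far apart, with a log2 fold change of -1.12 ± 0.0882 (SE). In the edgeR fit over all genes Col2a1 was the only one of the 10 past an adjusted p of 0.05. The same fit called 0.0302% of all genes, 0.0181% as lower and 0.0121% as higher. The count depended on the fit. DESeq2 called 6 of the 10 lower and 0 higher, where it called 6.3% of all genes lower and 8.33% higher. Over 12 alternative fits, Col2a1 was called in 12, Col1a1 in 10, Col9a2 in 8, Col1a2 in 6 and Col9a1 and Col11a2 in 3 each, and the others in 0. Since the genes were picked with this contrast known, nothing is read from these counts.

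The collagen IX chains were lower to unequal extents. Col9a1 (ENSMUSG00000026147, chr1:24177610-24252684) stood at 236 and 276 CPM in control libraries, against 152 and 156 CPM in those labelled Brg1cKO, a log2 fold change of -0.73 ± 0.185 (SE). Col9a2 (ENSMUSG00000028626, chr4:121039385-121055322) stood at 206 and 326 against 65.6 and 46.2 CPM, with a log2 fold change of -2.25 ± 0.305 (SE). The third chain, Col9a3, is no member of the set of 10 and stood at 105 and 91.1 against 42.2 and 24.5 CPM, lower in both but not past the test (log2 fold change -1.56 ± 0.387, adjusted p = 0.285, edgeR). These chains assemble with each other, so their balance within a library is of interest. The reads of Col9a2 were 0.874 and 1.18 times those of Col9a1 in the controls and 0.433 and 0.296 times in the others.

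The collagen XI chains were also unequal. Col11a1 (ENSMUSG00000027966, chr3:114030540-114220718) was nearly level, at 185 and 207 CPM in control libraries, against 177 and 142 CPM in those labelled Brg1cKO (log2 fold change -0.30 ± 0.207, SE). The groups did not overlap, but the lower control and the higher library of the other group lay close together, and the log2 fold change ranged from -0.45 without Brg1cKO replicate 1 to -0.14 without Brg1cKO replicate 2. Col11a2 (ENSMUSG00000024330, chr17:34039437-34066685) stood at 24.0 and 83.7 against 8.98 and 10.2 CPM. Its controls differed by 3.48-fold, the widest spread of the 10 genes, and its log2 fold change of -2.49 ± 0.688 (SE) was -1.34 without control replicate 2 and -3.12 without control replicate 1. The reads of Col11a2 were 0.130 and 0.405 times those of Col11a1 in the controls and 0.0508 and 0.0720 times in the others.

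Among the mesenchyme-type genes the collagen I chains were lower. Col1a1 (ENSMUSG00000001506, chr11:94936224-94953042) stood at 1107 and 1207 CPM in control libraries, against 568 and 580 CPM in those labelled Brg1cKO, a log2 fold change of -1.01 ± 0.104 (SE). Col1a2 (ENSMUSG00000029661, chr6:4504814-4541544) stood at 905 and 968 against 551 and 620 CPM, with a log2 fold change of -0.68 ± 0.114 (SE). Neither pair of groups overlapped. The reads of Col1a1 were 1.22 and 1.25 times those of its partner Col1a2 in the controls and 1.03 and 0.936 times in the others, so Col1a1 was the lower chain by reads in Brg1cKO replicate 2 alone.

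Collagens III and V differed little. Col3a1 (ENSMUSG00000026043, chr1:45311538-45349706) stood at 1188 and 1299 CPM in control libraries, against 1300 and 1358 CPM in those labelled Brg1cKO, with a log2 fold change of 0.10 ± 0.0919 (SE). The groups did not overlap, but the higher control (1299.2 CPM) and the lower library of the other group (1300.2 CPM) were almost level. Col5a1 (ENSMUSG00000026837, chr2:27886425-28039514) stood at 555 and 500 against 417 and 531 CPM (log2 fold change -0.16 ± 0.155, SE), which was 0.02 without Brg1cKO replicate 1 and -0.33 without Brg1cKO replicate 2. Col5a2 (ENSMUSG00000026042, chr1:45374321-45503282) stood at 417 and 352 against 374 and 354 CPM (log2 fold change -0.08 ± 0.149, SE), which was 0.05 without control replicate 1 and -0.22 without control replicate 2. Both had groups that overlapped. Col3a1 and Col5a2 are neighbours that point towards each other, with 24.6 kb and no protein-coding gene between them.

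Ratios of reads within a library do not move with library scaling. That of Col3a1 to Col1a1 did not overlap between the groups. The reads of Col3a1 were 1.07 and 1.08 times those of Col1a1 in the controls and 2.29 and 2.34 times in the libraries labelled Brg1cKO. The ratio was nearly the same in replicates and 2.15-fold higher in the second group. Col2a1 had 1.45 and 1.32 times the reads of Col3a1 in the controls and 0.592 and 0.599 times in the others, so the order of these genes by reads turned over. The ratio of Col2a1 to Col1a1, at 1.56 and 1.42 against 1.35 and 1.40, shifted by 1.08-fold. Col5a1 had 1.33 and 1.42 times the reads of Col5a2 in the controls and 1.11 and 1.5 times in the others, which overlap.

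**Figure D3:**
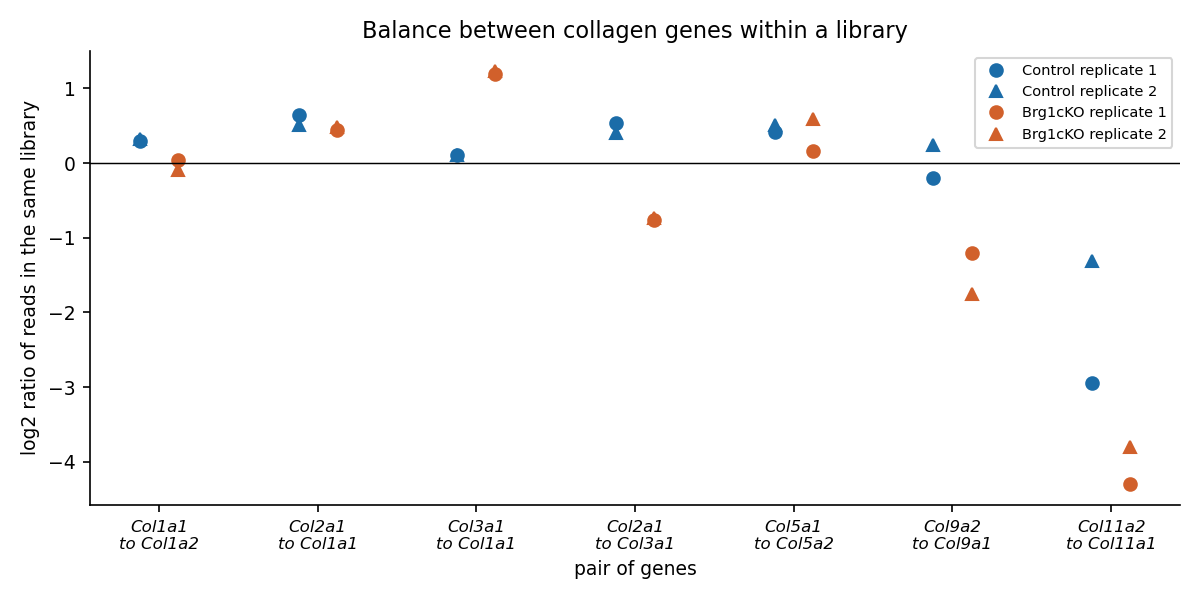
Log2 ratio of the reads of 2 collagen genes in the same library (y axis) for 7 pairs (x axis), with circles for replicate 1 and triangles for replicate 2. Control and Brg1cKO libraries lie far apart for Col3a1 to Col1a1 and for Col2a1 to Col3a1, and close together for Col2a1 to Col1a1.

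Levels of different genes were compared per kilobase of merged exons (RPKM from TMM-scaled CPM). In the controls the order was Col2a1 (186 ± 0.970 RPKM, SD, n = 2), Col1a1 (176 ± 10.8), Col3a1 (127 ± 8.0), Col9a2 (86.0 ± 27.4), Col1a2 (75.3 ± 3.56), Col5a1 (62.2 ± 4.57), Col9a1 (50.5 ± 5.67), Col5a2 (40.1 ± 4.83), Col11a1 (15.4 ± 1.23) and Col11a2 (7.83 ± 6.13). Each gene lay above the next in every control library except Col9a2, which overlapped Col1a2. In the libraries labelled Brg1cKO the order began with Col3a1 (135 ± 4.17 RPKM), Col1a1 (87.5 ± 1.30) and Col2a1 (85.7 ± 3.32), of which the last 2 overlapped. Col5a1 (55.8 ± 9.53) and Col1a2 (47.1 ± 3.96) also overlapped, followed by Col5a2 (38.0 ± 1.48), Col9a1 (30.4 ± 0.632), Col9a2 (18.1 ± 4.42), Col11a1 (12.5 ± 1.93) and Col11a2 (1.40 ± 0.127). The merged exons of Col1a2 were long (12426 bp, of which the main transcript codes with 4116 bp). Per coding length Col3a1 came before Col1a1 in the controls, with overlap, and the level of Col1a1 was 1.17 times that of Col1a2, where merged exons gave 2.34 times. Col2a1 was first in the controls and Col3a1 first in the others under both lengths.

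Replicates were compared with those of genes of similar abundance. The median fold between control replicates was 1.12 for the 10 genes and 1.37 for the 6924 tested genes with a mean of at least 31.7 CPM, the mean of the lowest of the 10. Between the replicates labelled Brg1cKO these medians were 1.09 and 1.15. The widest folds were those of Col11a2 and Col9a2 in the controls, at 3.48-fold and 1.58-fold, and of Col9a2 in the other group, at 1.42-fold. The difference from other genes was not tested.

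Promoter sequences from RefSeq (GRCm38.p6) were matched for 7 of the 10 genes. Those of Col2a1, Col1a1 and Col5a2 were not analysed here. The 250 bases before the RefSeq start are shown for Col11a2 and Col3a1. In the edgeR fit of all 4 libraries Col11a2 had the lowest log2 fold change of the 10 and Col3a1 the only positive one. Col9a2 was lower than Col11a2 without control replicate 2, without Brg1cKO replicate 1 and with a replicate block. Neither window overlaps an annotated exon. They lie at chr17:34038888-34039137 and chr1:45311288-45311537, both on the plus strand. In GENCODE M21 Col11a2 starts at 34039437, so its window does not adjoin that start. Col3a1 starts at 45311538, which its window adjoins. Capitals mark matches to 5 short motifs, searched on both strands. The TATA box was searched as TATAAA. The letters CCAAT stood for the CCAAT box and GGGCGG for the GC box. A core found in SOX sites was searched as ACAAT. The E-box searched was CACCTG.
Col11a2: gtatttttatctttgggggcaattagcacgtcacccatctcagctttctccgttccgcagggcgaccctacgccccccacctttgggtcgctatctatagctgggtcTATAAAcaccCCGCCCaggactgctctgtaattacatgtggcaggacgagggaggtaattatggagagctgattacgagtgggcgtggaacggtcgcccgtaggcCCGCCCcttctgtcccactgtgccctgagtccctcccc
Col3a1: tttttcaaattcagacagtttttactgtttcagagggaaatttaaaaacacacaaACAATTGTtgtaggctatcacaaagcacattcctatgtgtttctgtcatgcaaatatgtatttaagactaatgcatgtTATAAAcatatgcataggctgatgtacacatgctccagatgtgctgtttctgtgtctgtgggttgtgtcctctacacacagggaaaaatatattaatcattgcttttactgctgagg
The Col11a2 window held 1 TATA box and 2 GC boxes. The Col3a1 window held 1 TATA box and 2 overlapping ACAAT matches on opposite strands, which form a single palindrome. GC boxes stood in the windows of Col9a2, Col11a1, Col11a2, Col1a2 and Col5a1, 2 in each, and CCAAT in those of Col11a1, Col1a2 and 1 of 2 windows of Col9a1. CACCTG was in none of the 8 windows. Among 32851 promoter windows of the same length, 12.4% held TATAAA, 33.8% CCAAT, 32.7% GGGCGG, 27.7% ACAAT and 17.2% CACCTG. The GC content was 35.2% for Col3a1 and 57.6% for Col11a2, with a median of 52.4% over all windows. A match is a run of letters and does not show that a factor binds there.

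Other collagen genes were examined from lists, 34 chains in all. Of these 28 were tested and edgeR called 0. DESeq2 called 7 lower and 3 higher, where it called 6.3% of all genes lower and 8.33% higher. At an unadjusted p under 0.05, 6 were lower and 3 higher in edgeR, against 4.8% and 7.66% of all genes. The 3 higher ones, Col4a3, Col8a1 and Col19a1, had 0 reads in both controls and passed the filter on low counts through the libraries labelled Brg1cKO alone, so their direction was fixed by the filter. The median log2 fold change of the 28 tested chains was -0.45, beside 0.03 over all genes tested. Among 15 tested chains outside the fibrillar, collagen IX and main basement membrane lists, 5 were lower and 2 (Col8a1 and Col19a1) higher at an unadjusted p under 0.05, with a median of -0.69. Col8a2, a short-chain collagen of basement membranes, stood at 148 and 161 CPM in control libraries, against 27.9 and 43.2 CPM in those labelled Brg1cKO (adjusted p = 0.106, edgeR). Col6a1 and Col6a2, chains of the beaded filaments around cells, stood at 108 and 119 against 55.0 and 27.8 CPM and at 95.9 and 131 against 53.2 and 46.6 CPM (adjusted p = 0.322 and 0.308, edgeR). Col26a1 stood at 223 and 227 against 120 and 153 CPM (adjusted p = 0.345, edgeR).

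Basement membrane collagens had a median log2 fold change of -0.01 over 9 tested chains and 0 calls by edgeR. The list holds collagen IV, which forms the sheet of these membranes, and other collagens found at them. At an unadjusted p under 0.05, 0 were lower and 1 (Col4a3) was higher, and DESeq2 called 0 lower and 1 higher. The shares of all genes were 4.8% and 7.66% at that p, and 6.3% and 8.33% by DESeq2. Col4a1, a main chain of basement membranes, was abundant and nearly level, at 2667 and 2709 CPM in control libraries, against 2618 and 2416 CPM in those labelled Brg1cKO (adjusted p = 0.726, edgeR). Col4a5 stood at 81.4 and 49.2 against 87.3 and 100.3 CPM and Col4a6 at 4.94 and 12.1 against 11.9 and 18.7 CPM (adjusted p = 0.663 and 0.827). Col4a3 had no read in either control and 2.08 and 1.04 CPM in the others, which makes it at least 18.2-fold higher against a floor of 3 counts over the group. That bound covers counting error only. The only other tested collagens without a read in the controls, named after their values were seen, were Col8a1 and Col19a1, at least 36.8-fold and 46.5-fold higher on the same floor. Of the other 4 fibrillar and collagen IX chains, Col9a3 included, edgeR called 0, with 1 lower and 0 higher at an unadjusted p under 0.05, 1 lower and 0 higher by DESeq2, and a median log2 fold change of -1.47. Col5a3 stood at 22.9 and 17.2 against 4.10 and 11.2 CPM, Col27a1 at 97.2 and 61.3 against 45.3 and 67.0 CPM, and Col24a1 at 0.0650 and 15.1 against 1.74 and 0.849 CPM. Of these 3, Col27a1 and Col24a1 had groups that overlap (adjusted p = 0.637, 0.732 and 0.772, edgeR).

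**Figure D4:**
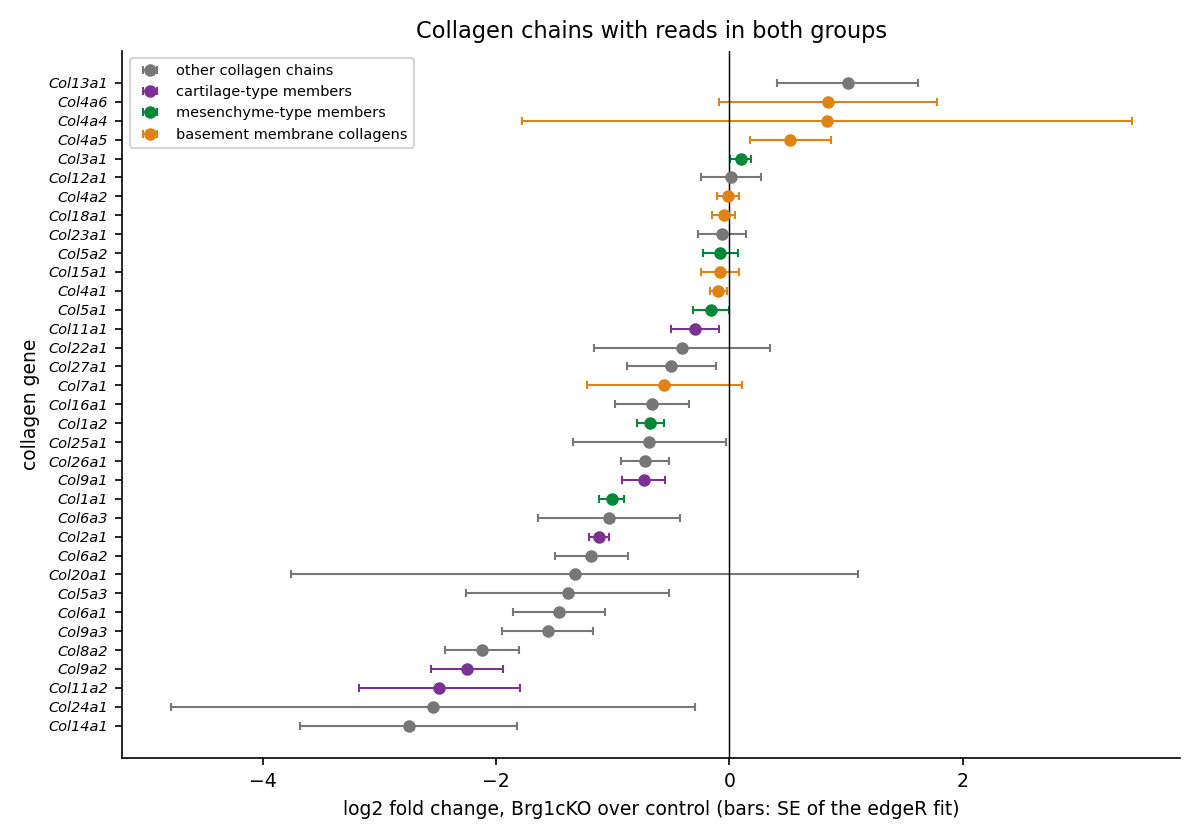
Log2 fold change of Brg1cKO over control (x axis, bars are the SE of the edgeR fit) for the 35 collagen genes tested with reads in both groups (y axis), coloured by kind. Of these, 29 are negative and 6 positive. The 10 genes picked with this contrast known make up 9 of the negative and 1 of the positive. Over all genes tested 8027 of 16557 are negative, a count that keeps genes without control reads. The 3 tested collagens without control reads, all positive, are not drawn.

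Genes of the cartilage programme included lower and higher ones. Of 36 listed, 26 were tested, edgeR called 0, 3 were lower and 3 higher at an unadjusted p under 0.05, and DESeq2 called 4 lower and 3 higher. Over all genes tested, 4.8% were lower and 7.66% higher at that p, and DESeq2 called 6.3% and 8.33%. Of the 3 higher in edgeR, Chad had 0 and Runx3 1 read over both controls, so that they passed the filter through the other group, which leaves Hapln1. The median log2 fold change was -0.06. Sox9, the transcription factor that switches on Col2a1, Col9a1 and Col11a2 in cartilage and is also made by otic epithelium, stood at 213 and 218 CPM in control libraries, against 119 and 93.8 CPM in those labelled Brg1cKO (log2 fold change -1.02 ± 0.215, adjusted p = 0.215, edgeR). Sox5, a partner of Sox9 at those genes, stood at 79.4 and 47.3 against 14.9 and 14.0 CPM (adjusted p = 0.228). Sox6, of the same list, stood at 20.0 and 35.6 against 30.5 and 27.5 CPM, with groups that overlap (adjusted p = 0.985). Cnmd, which encodes chondromodulin, a cartilage protein that blocks vessel growth, stood at 99.5 and 31.9 against 1.23 and 5.36 CPM (adjusted p = 0.228). Hapln1, a link protein of the cartilage matrix, went the other way, at 93.7 and 154 against 331 and 337 CPM (adjusted p = 0.131). Some other cartilage matrix genes had few or no reads. Acan, the cartilage proteoglycan, stood at 2.47 and 9.44 against 2.43 and 1.31 CPM, and Matn1, Snorc and Col10a1 had no read in any library. Sox6, Acan, Matn1, Snorc, Col10a1, Chad and Runx3 were named after their values were seen.

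Among mesenchyme genes, 24 of 36 tested had a positive log2 fold change and 12 a negative one, beside 8530 positive of 16557 over all genes tested. The positive ones include Aspn and Meox1, which had 0 and 1 read over both controls and passed the filter through the other group. They also include Tcf21 (1.56 and 0 CPM in control libraries), Meox2 (0.260 and 0.849 CPM) and Dcn (0.130 and 9.07 CPM). Tcf21, Meox2 and Dcn each had a control library at or near 0. All of these genes were named after their values were seen. Of 38 listed, 36 were tested, edgeR called 0, 1 was lower and 7 were higher at an unadjusted p under 0.05, and DESeq2 called 1 lower and 7 higher. The shares of all genes tested were 4.8% lower and 7.66% higher at that p, and 6.3% and 8.33% by DESeq2. Aspn and Meox1 are among the 7 higher in edgeR. The median log2 fold change was 0.27. Prrx1 was the 1 lower in edgeR (adjusted p = 0.365). It stood at 174 and 214 CPM in control libraries, against 121 and 67.1 CPM in those labelled Brg1cKO. With Twist1, Cdh11, Foxc1, Snai2 and Lum it made up the 6 of the 36 that lay below both controls, while 16 lay above both. Of all genes tested, 17.8% and 26.3% did. These 6 were named after their values were seen. Tnc, the adhesion-modulating glycoprotein tenascin C, stood at 61.5 and 52.1 CPM in control libraries, against 217 and 219 CPM in those labelled Brg1cKO (log2 fold change 1.94 ± 0.228, adjusted p = 0.0735, edgeR). Fn1, the matrix protein fibronectin on which collagen fibrils assemble, stood at 1775 and 1395 against 2599 and 2545 CPM (adjusted p = 0.121). Postn, which encodes periostin, a collagen-binding matrix protein, stood at 23.1 and 33.3 against 73.0 and 91.0 CPM (adjusted p = 0.287), and Zeb2, a transcription factor, at 101 and 90.8 against 168 and 170 CPM (adjusted p = 0.313). White blood cell and striated muscle markers, whose levels are given above, were higher in the same libraries, and their part in these values was not tested.

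The enzymes and chaperones that make and export procollagen lay on both sides of the controls. Among 24 tested genes of modification and export, edgeR called 0, 1 was lower and 2 were higher at an unadjusted p under 0.05, and DESeq2 called 2 lower and 2 higher, with a median log2 fold change of 0.07. Beside these counts stand 4.8% lower and 7.66% higher of all genes at that p, and 6.3% and 8.33% by DESeq2. Serpinh1, the chaperone HSP47 that holds the folded rod, stood at 1097 and 1122 CPM in control libraries, against 1402 and 1356 CPM in those labelled Brg1cKO (log2 fold change 0.31 ± 0.0864, adjusted p = 0.327, edgeR). P4ha1, a catalytic subunit of prolyl hydroxylase, stood at 205 and 172 against 120 and 114 CPM (adjusted p = 0.365). Sec24d, a coat protein of the vesicles that export procollagen, stood at 38.8 and 49.9 against 74.4 and 82.9 CPM (adjusted p = 0.382), and P3h4, a helper of collagen hydroxylation, at 72.1 and 92.1 against 53.4 and 41.5 CPM (adjusted p = 0.415).

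Among 11 tested genes of trimming and crosslinking, edgeR called 0, 1 was lower and 0 were higher at an unadjusted p under 0.05, and DESeq2 called 1 in each direction, with a median log2 fold change of 0.07. The same shares of all genes apply, 4.8% lower and 7.66% higher at that p, and 6.3% and 8.33% by DESeq2. Loxl3, a lysyl oxidase, stood at 59.3 and 39.9 CPM in control libraries, against 22.5 and 12.4 CPM in those labelled Brg1cKO (adjusted p = 0.368, edgeR). Adamts2, a protease that trims procollagen, stood at 2.99 and 3.93 against 15.8 and 18.6 CPM (adjusted p = 0.409). Bmp1, another procollagen protease, and its enhancer Pcolce stood at 193 and 109 against 126 and 116 CPM and at 102 and 53.9 against 34.4 and 75.6 CPM, with groups that overlap (adjusted p = 0.788 and 0.796).

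**Figure D5:**
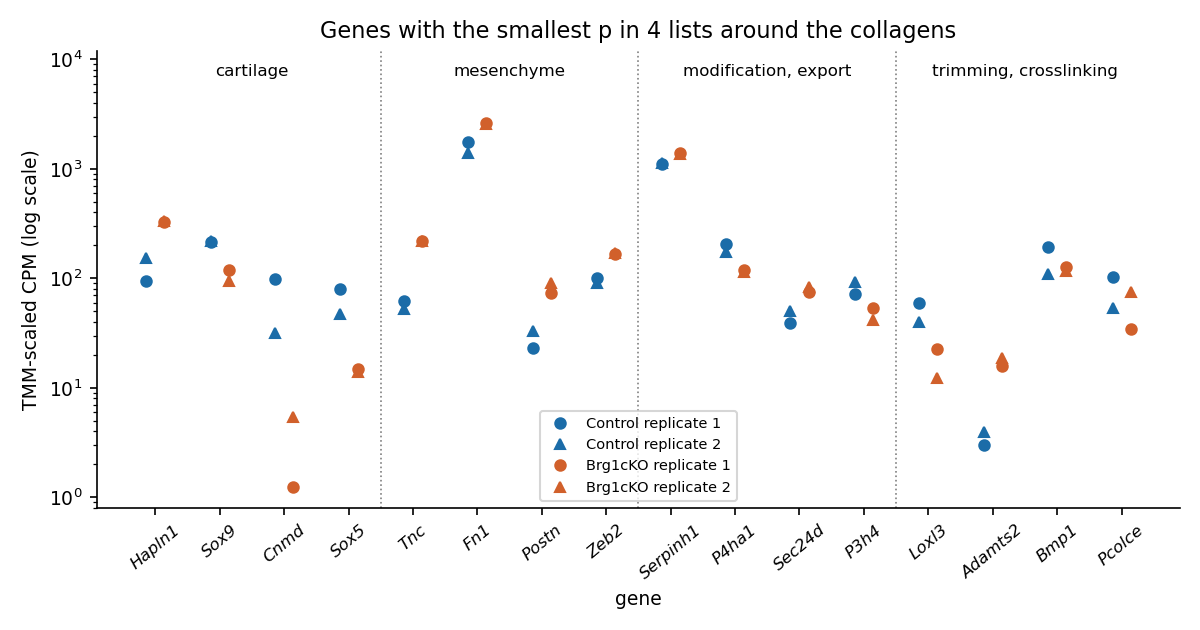
TMM-scaled CPM on a log scale (y axis) in the 4 libraries for the 4 genes with the smallest p in each of 4 lists (x axis), with circles for replicate 1 and triangles for replicate 2. Sox9, Sox5 and Cnmd lie lower and Hapln1, Tnc and Fn1 higher in the libraries labelled Brg1cKO, and none of the 16 genes passed an adjusted p of 0.05.

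Of 9 tested collagen receptors edgeR called 0, 0 were lower and 1 was higher at an unadjusted p under 0.05, and DESeq2 called 0 lower and 1 higher, with a median log2 fold change of 0.04. Lowest in p was Itga1, a collagen-binding integrin chain, at 51.8 and 49.8 CPM in control libraries, against 99.3 and 116 CPM in those labelled Brg1cKO (adjusted p = 0.320, edgeR). The receptor kinases Ddr1 and Ddr2 stood at 116 and 209 against 108 and 133 CPM and at 99.9 and 172 against 82.4 and 104 CPM, both with groups that overlap, and Itgb1 at 594 and 673 against 681 and 748 CPM (adjusted p = 0.708, 0.613 and 0.688). Among 15 tested genes of uptake and degradation edgeR called 1, Mrc1, and DESeq2 called 1 lower and 3 higher, with a median log2 fold change of 0.33. Of all genes, 4.8% were lower and 7.66% higher at an unadjusted p under 0.05 in edgeR. By adjusted p, edgeR called 0.0302% of all genes, and DESeq2 called 6.3% lower and 8.33% higher. Mrc1, the mannose receptor of macrophages that also takes up collagen, rose from 46.3 and 71.7 to 424 and 397 CPM (log2 fold change 2.80 ± 0.249, adjusted p = 0.0371, edgeR). It is itself a white blood cell marker. Ctsb, a lysosomal protease, stood at 315 and 201 against 504 and 464 CPM, Timp3, an inhibitor of matrix proteases, at 136 and 201 against 87.6 and 93.7 CPM, and Mmp15, a membrane-bound matrix protease, at 156 and 152 against 211 and 204 CPM (adjusted p = 0.283, 0.361 and 0.411).

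The genes closest to Col2a1 and Col1a1 in pattern were found over the 4 libraries among 2653 genes with a mean of at least 100 CPM, by the root mean square distance of centred log2 CPM. For Col2a1 they included Tubb2b (0.072), Col1a1 (0.075), Akap12 (0.081) and Krt18 (0.082). For Col1a1 they included Krt18 (0.026), Tenm3 (0.043), Mn1 (0.063) and Col2a1 (0.075). Krt18, a keratin of simple epithelia, stood at 139 and 158 CPM in control libraries, against 70.9 and 74.6 CPM in those labelled Brg1cKO. The distance takes in the difference between the groups, and nothing is read from it about function or control.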

How the data were processed

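RNA was measured in 4 libraries of sorted otic cells made with strand-specific SMART-seq chemistry and read from a single end, per the labels' protocols. The authors deposited raw read counts per Ensembl gene without normalization. Per the submitters' processing notes, the tools were HISAT2, HTSeq and DESeq2 and the build was mm10. Their versions, the strand setting and the gene annotation are details not given in the sources used here. Lines that name no gene were left out of library sizes and tests. Reads outside any gene made up 21.0% and 21.6% of the records for Control, and 14.5% and 15.0% for Brg1cKO. Reads counted in genes made up 48.2% and 49.3% of the records for Control, and 64.0% and 63.7% for Brg1cKO. Genes with any read numbered 17266 and 17086 against 20859 and 20902, in libraries of unequal depth. The part of these library differences in the results was not tested. Symbols, positions, exons and coding lengths came from GENCODE M21, which matched 52489 of 52636 identifiers. The test of these counts used edgeR 4.0.16 (R 4.3.3): filterByExpr with a minimum count of 10 (16557 genes), TMM scaling, and a robust quasi-likelihood fit of group over all 4 libraries. The call threshold was 0.05 for p after Benjamini-Hochberg adjustment over all genes, and DESeq2 1.42.0 on the same genes was an alternative. The 10 collagens and the 19 gene lists were chosen with earlier results of these data known. The genes to be named were the 10 collagens, Smarca4, up to 4 with the smallest p and any called one in each list of related genes, those with the highest level or smallest p in each cell list, and the 5 nearest in pattern to Col2a1 and to Col1a1. Some of the nearest genes are not reported here. Cell lists are given here by their sums. The fits were tested on simulated data. The replicate numbers do not pair the libraries by any label.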

Additional observations from a re-analysis of the deposited data

How the results depend on the processing

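The count of 5 genes called over the whole table, and of 1 among the 149 tested partner genes of the collagen pathway, depended on the model and the libraries. Over all genes it was 417 with every gene of at least 1 read, 10 with a minimum count of 50, 2422 with DESeq2 and 62 with the newer edgeR moderation. Among partner genes these counts were 14, 1, 36 and 5. Leaving out 1 library gave 33 to 3519 genes and 4 to 44 partner genes, the highest counts without a control (3519 without replicate 1 and 3355 without replicate 2). Each such fit has an arm of 1 library, assumed to vary like the remaining pair, so its calls rest on the spread of that pair alone. The other causes were not tested. With a replicate block 140 genes were called (69 lower, 71 higher) and 7 partner genes. The libraries share only a replicate number: over the 2 numbers the deviations of same-numbered libraries had a correlation of -0.00528. RLE and upper quartile scaling called 6 and 5 genes, and the fit without robust moderation 4. Per coding length the ratio of Col1a1 to Col1a2 in the controls was 1.17 in place of 2.34, since only the lengths differ. Over the 12 alternatives Col2a1 ranged from -1.15 to -1.07 on the log2 scale, Col1a1 from -1.07 to -0.97 and Col9a2 from -2.54 to -1.90. Col11a2 had the fewest reads of the 10 collagens, 263 to 1577 a library.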
